A study of Mus musculus with 64 samples.

Results

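Microglia of 24-month-old female mice were compared with microglia of 3-month-old females over 5647 genes. The comparison takes 7 of the 64 libraries of the series, 3 from 24-month and 4 from 3-month mice, each from 1 mouse, and each library was placed in its group by its label, not by its values. The mice were wild-type C57BL/6J females, an inbred laboratory strain, and all 7 had received PBS, the vehicle of the study's lipopolysaccharide (LPS) experiment. Live cells carrying CD11b with low CD45 were sorted from brain without cerebellum, and RNA of the sorted cells was amplified from its polyA tail and sequenced in bulk. The series covers females and males from 3 to 24 months, and LPS-treated females of 3, 14 and 24 months.

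Microglia are the resident macrophages of the brain. In the healthy adult they carry a homeostatic programme of surface receptors such as P2ry12, Tmem119 and Cx3cr1, with which they sense nucleotides and neuronal signals. Around damage, plaques or ageing myelin they are known to lower these genes and to raise lysosomal, lipid-handling and antigen-presentation genes, a programme often called disease-associated. MHC class I molecules present peptides made inside the cell and class II molecules peptides taken up from outside, and both sets of promoters hold conserved CCAAT boxes, while class I promoters also hold a kappaB site.

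The promoters of the MHC genes are shown because these genes were among those that rose together, and to set the class II members beside the class I members. The sequences are the 180 bases before the RefSeq start of each gene (GRCm38.p6), with matches to CCAAT or GGGNNTTCC on either strand in capitals (CCAAT in reverse reads ATTGG). They lie at chr17:34287824-34288003 (minus strand) for H2-Aa, chr17:34305687-34305866 (plus strand) for H2-Eb1, chr17:35438975-35439154 (plus strand) for H2-Q7, chr17:35262914-35263093 (plus strand) for H2-D1 and chr17:34000348-34000527 (minus strand) for H2-K1.
H2-Aa: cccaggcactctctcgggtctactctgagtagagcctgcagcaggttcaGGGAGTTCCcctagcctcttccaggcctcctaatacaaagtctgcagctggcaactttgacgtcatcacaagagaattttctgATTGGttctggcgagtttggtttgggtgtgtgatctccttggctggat
H2-Eb1: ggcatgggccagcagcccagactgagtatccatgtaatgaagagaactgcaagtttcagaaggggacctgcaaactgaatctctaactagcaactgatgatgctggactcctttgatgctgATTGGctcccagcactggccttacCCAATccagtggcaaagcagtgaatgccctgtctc
H2-Q7: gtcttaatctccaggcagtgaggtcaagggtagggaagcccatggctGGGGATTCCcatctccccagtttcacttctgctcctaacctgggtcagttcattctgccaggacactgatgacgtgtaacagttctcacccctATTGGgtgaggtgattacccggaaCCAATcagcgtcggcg
H2-D1: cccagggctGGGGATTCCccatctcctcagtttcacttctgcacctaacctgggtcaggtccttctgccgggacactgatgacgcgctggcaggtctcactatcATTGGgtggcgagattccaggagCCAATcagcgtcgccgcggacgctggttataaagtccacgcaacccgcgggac
H2-K1: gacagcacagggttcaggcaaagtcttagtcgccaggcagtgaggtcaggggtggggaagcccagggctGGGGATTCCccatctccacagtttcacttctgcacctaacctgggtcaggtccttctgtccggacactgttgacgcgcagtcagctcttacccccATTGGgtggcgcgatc

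H2-Aa and H2-Eb1, the class II pair, hold ATTGG beginning 48 and 59 bases before the start. The class I genes H2-Q7, H2-D1 and H2-K1 share GGGGATTCC, which begins 133, 171 and 111 bases before the start. H2-Aa holds another kappaB-like match, GGGAGTTCC, 131 bases before its start, and no match was found for H2-Eb1 in this window. A CCAAT box stood in 6 of the 9 class II promoters and 13 of the 18 class I promoters found in the RefSeq table, against 37.9% of all 27025 promoters of 300 bases. The kappaB-like motif stood in 2 of 9 and 4 of 18, against 5.72%. These are matches of letters and were not tested as binding sites. Only 64 of the 88 genes that rose and 20 of the 30 that fell had a promoter there, so that a comparison over the changed genes is void.

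The deposited values are FPKM after a batch adjustment (reads relative to transcript length and library size), rounded to whole numbers apart, in these 7 mice, from some values below 1. They summed to between 511391 and 554459 in the 24-month mice and to between 496013 and 516571 in the 3-month mice, a difference of 28177 between the means (two-sided exact permutation test, p = 0.114, where 3 against 4 mice allow no p below 0.0286). The number of reads is unknown. On the log2 scale, the libraries of 3-month mice correlated with each other at r = 0.967 to 0.979, and those of 24-month mice at r = 0.903 to 0.947, and pairs across age at r = 0.896 to 0.944 (all across genes). The sorted cells carried defining microglial genes: Tmem119 had values of 2182, 1972 and 1759 in 24-month mice, against 2847, 2317, 2296 and 2544 in 3-month mice, and Csf1r, the receptor on which microglia depend for survival, had 2432, 2157 and 1820 in 24-month mice, against 3128, 2698, 2586 and 2902 in 3-month mice. Eif2s3y, a gene of the Y chromosome that females do not carry, had 4, 9 and 27 in 24-month mice, against 41, 30, 24 and 16 in 3-month mice. LPS-treated females had 14, 19 and 35 at 24 months, 6 to 19 at 3 months and 4 to 19 at 14 months. Males had 27 to 32 at 3 months, 28 to 34 at 6 months and 9 to 36 at 9 months. They had 33 to 34 at 12 months, 27 to 32 at 16 months and 10 to 33 at 19 months. The 24-month males had 8 to 16 and so overlapped the females, and the gene did not follow the labels throughout the series. The 19 PBS-treated females of 6 to 16 months had 6 to 11. The 3-month libraries labelled female, and the third 24-month one, therefore stood above all of these other PBS-treated females, which goes against their labels, and as this was the only Y-linked gene examined the sex labels remain in doubt. No comparison is possible without all 4 of these 3-month libraries. Without the third 24-month mouse 106 genes passed, of which 78 were among the 118 called with all 7 mice. Females and males were batch-adjusted together, the batches are unnamed, and how far the adjustment moved this or other genes was not tested. Neutrophil genes were abundant despite the sort, with S100a8, a calcium-binding protein of neutrophils, at 4611, 4262 and 1614 in 24-month mice, against 6283, 4107, 9967 and 3691 in 3-month mice. In bulk samples, fewer cells of a type and less RNA per cell cannot be told apart.

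At 24 months, 88 genes rose and 30 fell. The largest rises were in Spp1, in the chemokine gene Cxcl13 and in a group of lymphocyte genes, and broader rises took in MHC class I and class II genes, Cst7, Axl and Clec7a of the disease-associated programme, and ribosomal protein genes. Apart from the neutrophil granule genes Mpo and Elane, the falls were smaller than the largest rises, and 17 of the 30 were in the longest of 5 bins of genes by length. Genes were called in limma where the adjusted p was below 0.05 and the fold above 1.5, and by this rule 1.56% of the 5647 genes rose and 0.531% fell. Only genes with a mean of 10 or more over the 64 libraries were kept. Cxcl13, H2-Q7, Cxcr6, Ptgds, Gadd45b and Gimap3 had 3-month means of 0.525, 5.25, 6.75, 6.75, 6.75 and 7.5, and Ccnd2 and Haao of 7. Among the falls, Mpo, Elane, Asxl2 and Hspa13 had 24-month means of 1.67, 2.73, 5.67 and 6. Zfp943, Slc39a10 and Rad21 had 24-month means of 6.67, 7.33 and 8.33. Such genes were kept only through groups where they are higher, so that counts over gene lists that hold them do not describe those lists as a whole. The median log2 fold change of all genes was -0.02. Every 24-month value lay above every 3-month value for 737 genes (13.1%) and below for 634 (11.2%).

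**Figure D1:**
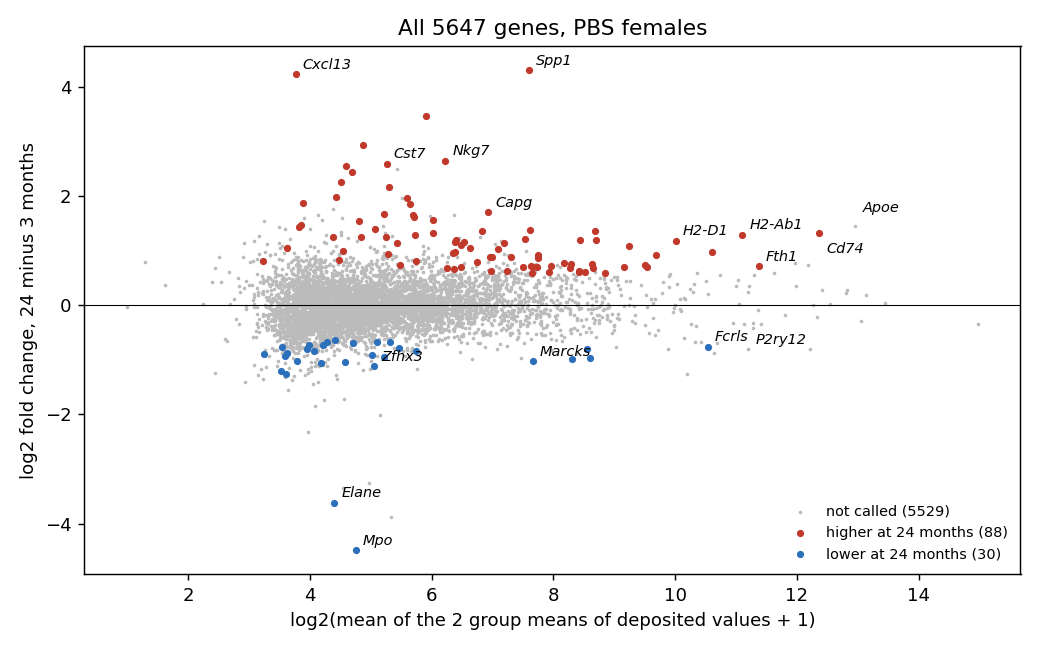
Log2 fold change of each of the 5647 genes at 24 against 3 months (vertical axis, positive where higher at 24 months) against its mean level on the log2 scale (horizontal axis) in PBS females. The 88 genes that rose are red, the 30 that fell are blue and the genes that did not pass are grey, with Spp1 and Cxcl13 at the top of the red points and Mpo and Elane at the bottom of the blue ones.

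The calls depended on single mice. Without the first 24-month mouse 20 genes passed, all higher, of which 19 were among the 118. Without the second 40 passed, of which 33 were among them. Without the first or the second 3-month mouse 43 genes passed, all among the 118. Without the third 72 passed (67 among the 118) and without the fourth 74 (70 among the 118). Without the third 24-month mouse 106 genes passed, but only 78 of them were among the 118. Of the 63 called genes that the naming rule picked, 12 passed whichever mouse was left out: Spp1, Cxcl13, Nkg7, Cst7, Cxcr6, Ptgds, Il2rg, H2-Q7, Capg, H2-D1, H2-Ab1 and Rps18. For the other 51, at least 1 such fit put the adjusted p at 0.05 or above.

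**Figure D2:**
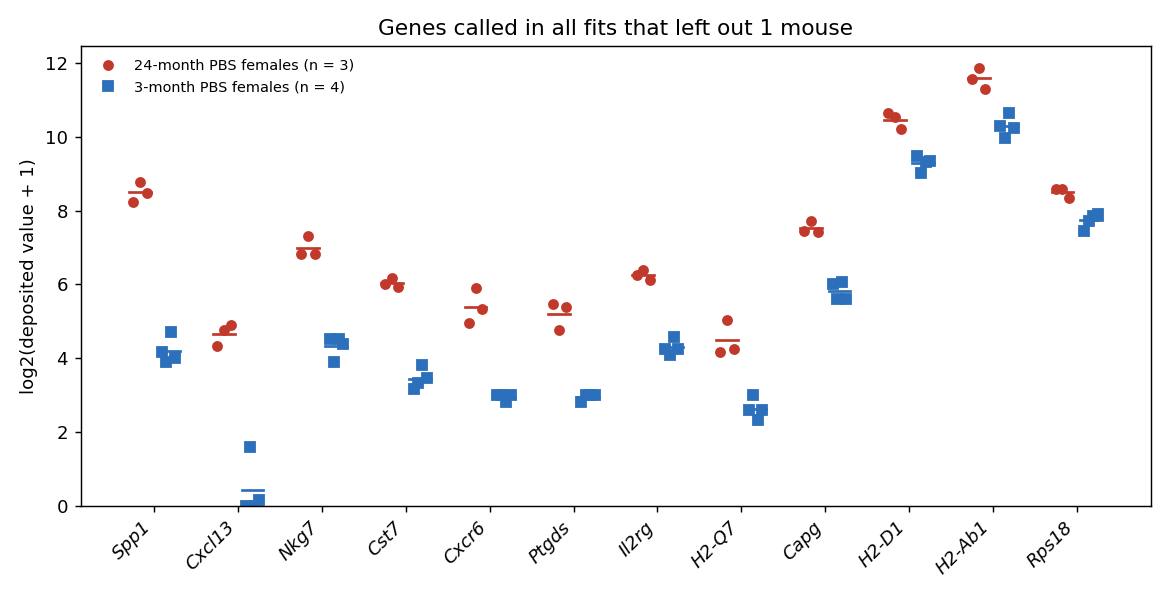
Level of the 12 named genes that passed whichever mouse was left out, as log2(deposited value + 1), in each of the 3 24-month mice (red circles) and the 4 3-month mice (blue squares), with lines at the group means. The groups do not overlap for any of the 12 genes.

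Spp1 on chromosome 5 (GRCm38, 104435118 to 104441050) encodes osteopontin, a secreted phosphoprotein that binds integrins and CD44. Its values were 301, 441 and 359 in 24-month mice, against 17, 14, 25 and 15 in 3-month mice (log2 fold change 4.31 ± 0.67 SE, adjusted p = 0.00185). The lowest 24-month mouse stood far above the highest 3-month mouse, with no overlap. Over the 7 female ages, its mean was 17.8 at 3 months, 22.5 at 6, 65.0 at 9, 101 at 12, 236 at 14, 299.8 at 16 and 367 at 24 months.

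Of 26 measured disease-associated genes, 7 rose (26.9%, against 1.56% of all genes), none fell and 19 did not pass. Their median log2 fold change was 0.56 against -0.02 for all genes. The groups did not overlap, with the 24-month mice higher, for 19 of the 26, against 13.1% of all genes. Besides Spp1, Cst7, an inhibitor of cysteine proteases of the lysosome, had 63, 71 and 60 in 24-month mice, against 8, 9, 13 and 10 in 3-month mice (log2 fold change 2.59 ± 0.46 SE, adjusted p = 0.00312). Axl, a receptor tyrosine kinase for phosphatidylserine-bound Gas6, had 65, 60 and 42 in 24-month mice, against 19, 12, 19 and 17 in 3-month mice (log2 fold change 1.67 ± 0.35 SE, adjusted p = 0.0104). Clec7a, the beta-glucan receptor dectin-1, had 76, 113 and 99 in 24-month mice, against 34, 29, 40 and 25 in 3-month mice (log2 fold change 1.56 ± 0.38 SE, adjusted p = 0.0281). In all 3 genes every 24-month mouse stood above every 3-month mouse. Cd63, a tetraspanin of late endosomes, and Fth1, the ferritin heavy chain, rose by 1.20 and 0.72 on the log2 scale. Apoe, the lipid carrier that is among the most abundant transcripts here, had 14150, 10480 and 10387 in 24-month mice, against 4174, 3873, 4661 and 4260 in 3-month mice and did not pass (log2 fold change 1.45 ± 0.46 SE, adjusted p = 0.0793), although its groups did not overlap. It passed in the fit of the 2 groups alone, and its mean stayed between 3853 and 4977 in females of 3 to 16 months. Trem2 and Tyrobp, the lipid-sensing receptor and its signalling adaptor, did not pass, at 0.24 and 0.46. Over the fits that left out 1 mouse, between 3 and 8 genes of the list rose.

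Of 29 homeostatic genes, 1 fell (against 0.531% of all genes) and none rose, and their median log2 fold change was -0.52. The 24-month mice lay wholly below the 3-month mice for 22 of the 29 (11.2% of all genes) and wholly above for 1 (13.1% of all genes). The gene that fell was Fcrls, an Fc receptor-like molecule of mouse microglia, with 854, 1328 and 1156 in 24-month mice, against 1832, 1880, 1875 and 1819 in 3-month mice (log2 fold change -0.76 ± 0.15 SE, adjusted p = 0.00709). P2ry12, the ADP receptor of microglial processes, had 1394, 1900 and 1850 in 24-month mice, against 2952, 3283, 2896 and 2802 in 3-month mice and did not pass (log2 fold change -0.81, adjusted p = 0.091). Cx3cr1, the fractalkine receptor, had 1201, 1410 and 1185 in 24-month mice, against 2274, 2057, 1897 and 1961 in 3-month mice and did not pass either (-0.69, adjusted p = 0.135). Both genes separated the ages without overlap, and both passed in the fit of the 2 groups alone. The female mean of P2ry12 was 2983 at 3 months, 1891.5 at 6, 1549 at 9 and 981 at 12. It was 1608 at 14, 1372 at 16 and 1715 at 24 months, so that it was already lower at 6 months and lowest at 12. Cx3cr1 had means of 2047 at 3 months, 1645.5 at 6, 1133 at 16 and 1265 at 24 months. Of other reference genes, Tmem119, Csf1r, Itgam and Sall1 had log2 fold changes between -0.69 and -0.34, and C1qa, Aif1, Ptprc, Spi1, Irf8 and Cst3 overlapped between the ages. Cst3, the most abundant transcript named here, had 20161, 34141 and 31688 in 24-month mice, against 31692, 35907, 35057 and 40380 in 3-month mice, and the first 24-month mouse was the lowest of the 7. That mouse also had the lowest summed value of the homeostatic list, 45101, where the other 24-month mice had 63182 and 59170 and the 3-month mice 68835 to 76684.

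Of 21 MHC class I presentation genes, 4 rose (against 1.56% of all genes) and none fell (median log2 fold change 0.43). H2-D1, a classical class I heavy chain, had 1605, 1499 and 1181 in 24-month mice, against 708, 519, 639 and 646 in 3-month mice (log2 fold change 1.18 ± 0.20 SE, adjusted p = 0.00263). H2-Q7, a non-classical chain of the Qa-2 family, had 17, 32 and 18 in 24-month mice, against 5, 7, 4 and 5 in 3-month mice (log2 fold change 1.86 ± 0.30 SE, adjusted p = 0.00185). H2-K1, the other classical chain of this strain, rose by 0.70 and Psmb8, an immunoproteasome subunit, by 0.70. Class I genes resemble each other closely, so that reads may be split between them. B2m, the shared light chain, had 3896, 5673 and 4138 in 24-month mice, against 3202, 3520, 3531 and 3845 in 3-month mice and did not pass (0.36, adjusted p = 0.141).

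Of 11 class II genes 4 rose (against 1.56% of all genes) and none fell (median 0.61). The ages separated with the 24-month mice higher in 9 of 11, against 13.1% of all genes. Cd74, the invariant chain that escorts class II molecules, had 7729, 8945 and 5957 in 24-month mice, against 3238, 2396, 3772 and 2662 in 3-month mice (log2 fold change 1.32 ± 0.26 SE, adjusted p = 0.00709). H2-Ab1, a class II beta chain, had 3052, 3755 and 2540 in 24-month mice, against 1256, 1004, 1597 and 1221 in 3-month mice (log2 fold change 1.30 ± 0.24 SE, adjusted p = 0.00408). H2-Eb1 and H2-Aa rose by 1.08 and 0.91 on the log2 scale. In each of these 4 genes the second 24-month mouse was the highest of the 7 and the third 24-month mouse the lowest of the aged mice. H2-Ab1 passed whichever mouse was left out, while between 1 and 4 class II genes rose over these fits. The summed class II value was 17792 to 25676 at 24 months and 11567 to 13571 at 3 months.

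Of 52 interferon-induced genes, 2 rose (3.85%, against 1.56% of all genes) and none fell, with a median of 0.55. In 30 of the 52 all 24-month values lay above all 3-month values, against 13.1% of all genes. Ifi27l2a had 122, 197 and 167 in 24-month mice, against 45, 56, 88 and 65 in 3-month mice (log2 fold change 1.35 ± 0.28 SE, adjusted p = 0.0104). Lgals3bp, a secreted galectin-3 binding glycoprotein, had 297, 270 and 263 in 24-month mice, against 171, 145, 140 and 150 in 3-month mice and lost its call without each single mouse (log2 fold change 0.87 ± 0.23 SE, adjusted p = 0.0422).

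Of 42 listed chemokine and cytokine genes 27 were measured, of which 6 rose (against 1.56% of all genes) and none fell. Cxcl13, the B cell attractant, had 19, 26 and 29 in 24-month mice, against 0, 2, 0 and 0.1 in 3-month mice (log2 fold change 4.23 ± 0.82 SE, adjusted p = 0.00709). Ccl8, a ligand of chemokine receptors on monocytes and T cells, had 88, 60 and 39 in 24-month mice, against 7, 6, 24 and 22 in 3-month mice, the 3-month mice falling into a lower and a higher pair (log2 fold change 2.17 ± 0.57 SE, adjusted p = 0.0427). Tnf had 60, 50 and 66 in 24-month mice, against 24, 28, 25 and 27 in 3-month mice (log2 fold change 1.14 ± 0.31 SE, adjusted p = 0.047) and lost its call without each single mouse. Its female mean was 26 at 3 months, 108 at 6, 58 at 9 and 59.25 at 12. It was 76.8 at 14, 93.6 at 16 and 58.7 at 24 months, so that 24 months lay below 6, 12, 14 and 16 months. Immediate early genes respond within minutes to stimuli and to tissue handling. Of the 24 listed and measured, 4 rose (against 1.56% of all genes): Gadd45b, Ppp1r15a, Dusp1 and Atf3, by 1.43, 1.21, 0.97 and 0.88 on the log2 scale. Between 0 and 2 of the list rose in the fits that left out 1 mouse, and Ppp1r15a lost its call without each single mouse. The female mean of Ppp1r15a was 111 at 3 months, 222 at 6, 103 at 9, 89.0 at 16 and 258 at 24 months. That of Gadd45b was 6.75 at 3 months, 22 at 6, 12 at 9, 29.2 at 16 and 19.7 at 24 months. Dusp1, a phosphatase that switches off MAP kinases, had 2453, 1828 and 1909 in 24-month mice, against 1080, 1027, 1064 and 994 in 3-month mice. None of the 17 genes of the NF-kB pathway passed (median 0.35), where 1.56% of all genes rose. Whether handling during dissociation moved with age was not tested.

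Some genes of T and NK cells rose. Only 4 of 22 markers are in the table: Cd3g, a chain of the T cell receptor complex, Nkg7, a granule protein of cytotoxic cells, Ms4a4b and Ccl5. Each of them rose, but the table keeps genes with a mean of 10 or more over the 64 libraries, and Cd3g and Ms4a4b, both with a mean of 6 in 3-month mice, are in it through other groups, so that their number says nothing about the markers as a whole. Between 1 and 3 of them rose in the fits that left out 1 mouse. The female mean of Ccl5 was 20.5 at 3 months, 155 at 14, 150 at 16 and 77.3 at 24 months. Nkg7 had 112, 159 and 112 in 24-month mice, against 22, 14, 22 and 20 in 3-month mice (log2 fold change 2.65 ± 0.39 SE, adjusted p = 0.00185). Cd3g had 36, 58 and 27 in 24-month mice, against 3, 6, 8 and 7 in 3-month mice (log2 fold change 2.56 ± 0.67 SE, adjusted p = 0.0422) and lost its call without each single mouse. The sum of the 4 markers was 249 to 376 at 24 months and 48 to 57 at 3 months. Cxcr6, a receptor for Cxcl16 on tissue T cells, had 30, 59 and 39 in 24-month mice, against 7, 7, 6 and 7 in 3-month mice (log2 fold change 2.44 ± 0.40 SE, adjusted p = 0.00185). Il2rg, the common gamma chain of interleukin receptors, had 76, 83 and 69 in 24-month mice, against 18, 16, 23 and 18 in 3-month mice (log2 fold change 1.97 ± 0.33 SE, adjusted p = 0.00206). Gimap3, a GTPase of lymphocytes, rose by 1.99. Jchain, which joins the chains of secreted antibodies, had 136, 127 and 43 in 24-month mice, against 18, 3, 43 and 0.39 in 3-month mice, so that 1 mouse of each age shared the value 43 (log2 fold change 3.47 ± 0.88 SE, adjusted p = 0.0357), and Cd79b, the other B cell marker in the table, did not pass at 0.11. These marker levels are stated beside the microglial genes, and their part in the other rises was not tested.

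Of other cell types, 2 of 17 neutrophil markers fell (against 0.531% of all genes) and none rose, with a median of -0.83. Mpo, myeloperoxidase on chromosome 11 (GRCm38, 87793581 to 87804413), had 0, 0 and 5 in 24-month mice, against 37, 23, 116 and 25 in 3-month mice (log2 fold change -4.49 ± 0.92 SE, adjusted p = 0.00968). Elane, neutrophil elastase, had 0.9, 0.28 and 7 in 24-month mice, against 32, 27, 75 and 16 in 3-month mice (log2 fold change -3.62 ± 0.86 SE, adjusted p = 0.0253). Both were near or at 0 in 2 of the 3 24-month mice and highest in the third 3-month mouse, which also had the highest neutrophil sum (19257, against 7273 to 13338 in the other 3-month mice and 3375 to 9314 in 24-month mice). Of 14 markers of monocyte-derived cells 1 rose, the calcium-binding protein S100a6 (log2 fold change 1.61, with summed list values of 481 to 1285 at 24 months and 520 to 970 at 3 months). None of 14 border macrophage markers passed (median 0.05). The 2 choroid plexus markers summed to 403, 0.54 and 315 in the 24-month mice, against 12.4 to 53.0 in the 3-month mice, and Ptgds, a prostaglandin synthase that brain barrier cells also make, had 43, 26 and 41 in 24-month mice, against 6, 7, 7 and 7 in 3-month mice (log2 fold change 2.25 ± 0.40 SE, adjusted p = 0.00317). The second 24-month mouse had the lowest value of the aged mice in both, and the part of these cells in the rise of Ptgds was not tested. The 3 erythroid markers, all haemoglobin genes, had a median of -3.26 and none passed. Their sums were 10, 18 and 0.53 in 24-month mice, against 114, 280, 244 and 0.85 in 3-month mice, the fourth 3-month mouse being as low as the aged mice. The 5 oligodendrocyte markers measured summed to 4863 to 5117 in 24-month mice and to 3336 to 3509 in 3-month mice without overlap, of which Fth1, also a microglial gene, made up the most and alone passed. Mag and Cnp, the more specific of them, overlapped between the ages. None of the 14 neuron markers is among the genes measured.

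Among the 80 genes for proteins of the cytosolic ribosome, 20 passed, all higher (25%, against 1.56% of all genes), with a median of 0.54. In 68 every 24-month mouse lay above every 3-month mouse, against 13.1% of all genes. Rps18 had 386, 386 and 321 in 24-month mice, against 174, 208, 232 and 240 in 3-month mice (log2 fold change 0.77 ± 0.13 SE, adjusted p = 0.00286). Rpsa, which is also known as the laminin receptor, had 131, 94 and 103 in 24-month mice, against 44, 57, 54 and 66 in 3-month mice (log2 fold change 0.97 ± 0.23 SE, adjusted p = 0.0271). Over the fits that left out 1 mouse between 1 and 17 of the 80 rose, and 10 rose after every library was scaled to the same total. Of 77 nuclear genes of the respiratory chain and ATP synthase none passed (median 0.38). Still, 45 separated the ages with the 24-month mice higher, against 13.1% of all genes. Ribosomal genes have many near-identical copies in the genome.

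Of the other lists, none of 19 glycolysis genes passed (median 0.37), and of 51 lysosomal genes only Cd63 rose (median 0.02). That is 1.96% of the lysosomal list, where 1.56% of all genes rose and 0.531% fell. At such shares, 1 called gene or none in a list of this paragraph says nothing about that list. Of 20 Fc gamma and inhibitory receptors 1 rose, Lilrb4a, an inhibitory receptor of myeloid cells (1.33), and of 18 cell cycle genes 1, cyclin D2 (1.05). Vcam1, an adhesion molecule, rose by 1.24 in the list of 24 integrin and matrix genes. None of 13 complement genes, 19 Toll-like receptors and adaptors, 25 lipid-handling genes or 24 myeloid transcription factors passed, and their medians were 0.19, -0.00, 0.21 and -0.16. Among chaperones, Hspa1a, the inducible Hsp70, rose by 1.04, while Hspa13 and Hsp90ab1 fell. The female mean of Hspa1a was 64.3 at 3 months, 270 at 6, 62.0 at 16 and 132 at 24 months. Capg, an actin-capping protein, had 174, 211 and 169 in 24-month mice, against 63, 48, 66 and 48 in 3-month mice (log2 fold change 1.71 ± 0.34 SE, adjusted p = 0.00709), and Cd72, a receptor that inhibits B cells, rose by 1.66. Crlf2 and Haao, a cytokine receptor chain and an enzyme of tryptophan breakdown, rose by 1.55 and 1.47.

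The genes that fell were led, after Mpo and Elane, by Zfp943 and Hspa13. Hspa13, an Hsp70 relative of the endoplasmic reticulum, had 7, 5 and 6 in 24-month mice, against 15, 14, 14 and 17 in 3-month mice (log2 fold change -1.20 ± 0.26 SE, adjusted p = 0.0152). Zfhx3, a homeobox transcription factor, had 14, 19 and 29 in 24-month mice, against 45, 44, 44 and 43 in 3-month mice (log2 fold change -1.11 ± 0.22 SE, adjusted p = 0.00709). Marcks, a membrane-bound substrate of protein kinase C, had 94, 118 and 197 in 24-month mice, against 258, 260, 266 and 279 in 3-month mice (log2 fold change -1.03 ± 0.23 SE, adjusted p = 0.0152). In Zfhx3 and Marcks the 3-month mice were close together and the 24-month mice spread, the first lowest and the third nearest to the 3-month values. Dido1, Rad21 of the cohesin ring, the RNA-binding protein Qk, the corepressor Nrip1 and Asxl2 had log2 fold changes between -1.06 and -0.89, and the transmembrane sialomucin Cd164, the phosphodiesterase Pde3b and the zinc transporter Slc39a10 between -0.98 and -0.93. Some were already low at 6 months. The female means at 3, 6 and 24 months were 17.25, 7 and 8.33 for Rad21 and 506, 279.5 and 270 for Qk. They were 47.75, 23 and 24.3 for Pde3b, but 11.25, 9.5 and 5.67 for Asxl2. Of 53 zinc finger protein genes 2 fell, Zfp943 and Zfp65 (list median -0.33), against 0.531% of all genes. No gene that fell kept its call when the first 24-month mouse was left out, and Mpo lost it without the second as well.

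**Figure D3:**
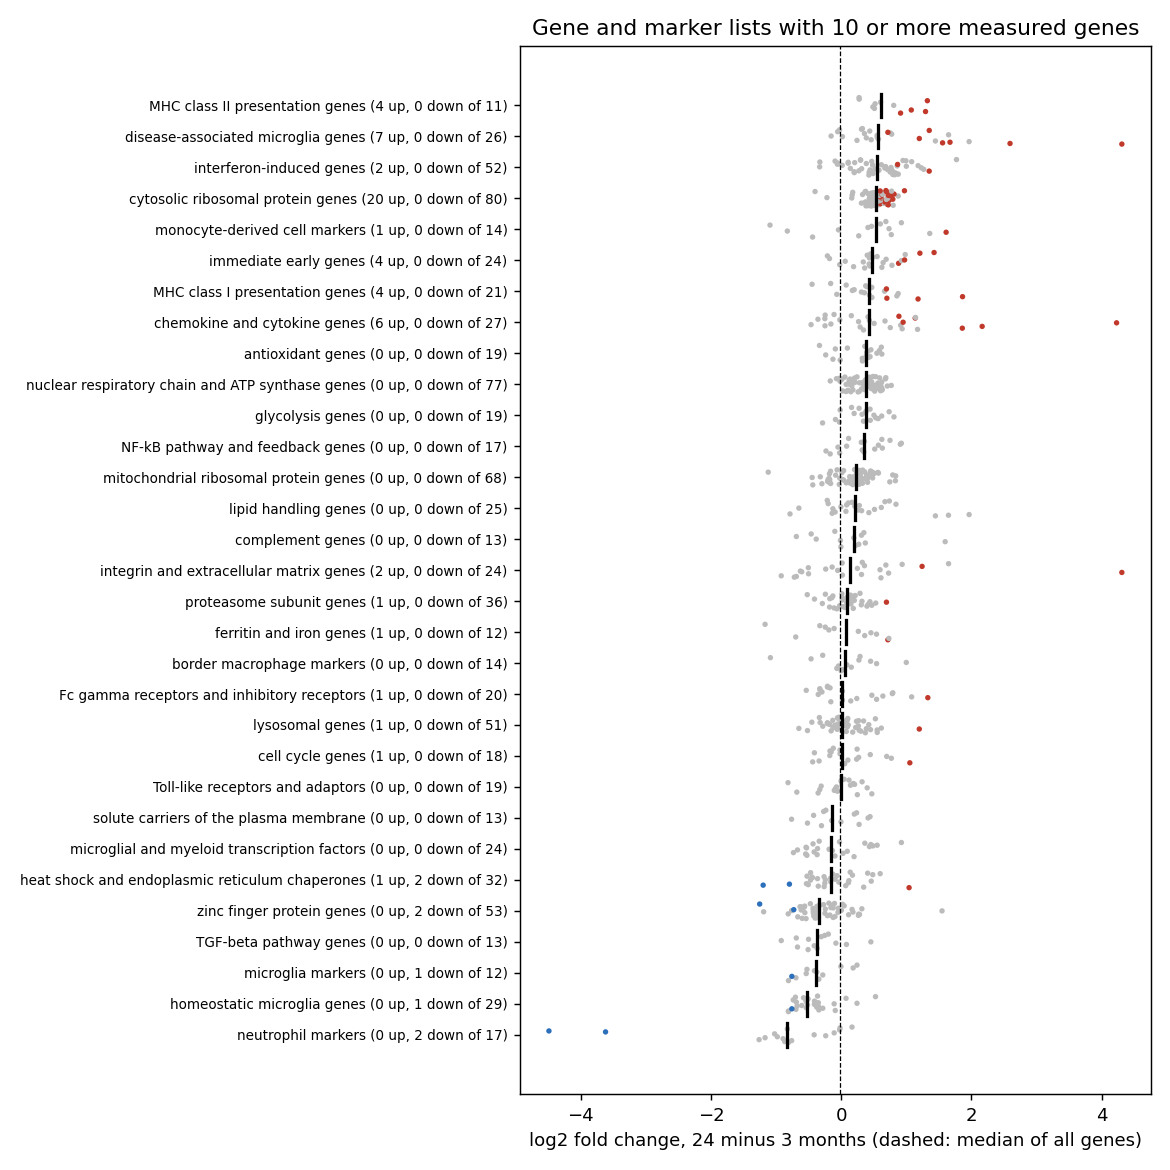
Log2 fold change at 24 against 3 months (horizontal axis) of each member of the gene and marker lists with 10 or more measured genes (rows, ordered by median). Red points rose, blue points fell and grey points did not pass, black bars are list medians, and MHC class II genes (median 0.61) and neutrophil markers (median -0.83) stand at the ends.

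Genes that rose tended to be short and genes that fell to be long. The genes were split by exonic length into 5 bins of equal size. This length, the union of the exons of GENCODE vM21, had a median of 2280 bases over the 85 risen genes with a length, or 2568 with ribosomal protein genes left out, and of 7468 over the 30 fallen genes, against 4003 over all 5603 genes with a length. In the shortest bin (up to 2213 bases) 42 rose and 1 fell, and in the longest (6926 bases and more) 4 rose and 17 fell. The median log2 fold change was 0.21, 0.06, -0.03, -0.09 and -0.20 from the shortest to the longest bin. Every 24-month mouse stood above the mean of the 7 mice in the shortest bin, by 0.17, 0.19 and 0.09 on the log2 scale, and every 3-month mouse below it, at -0.15, -0.11, -0.04 and -0.03. From the shortest to the longest bin, the males of the same ages had medians of 0.12, 0.12, 0.10, 0.10 and 0.07. The LPS-treated females had 0.05, -0.07, -0.07, -0.04 and -0.01, without a steady decline. After the trend with length was removed within each library, an alternative added after the data were seen, 67 genes passed (53 higher, 14 lower), 56 of them among the 118. Counts were then 7 for the disease-associated list and 4 each for class I and class II, as before, but 5 for the ribosomal list, 2 each for the chemokine, immediate early and T and NK cell lists, and 0 for the B cell and monocyte-derived lists. The integrity of the RNA is unknown here, and the cause of the trend was not tested.

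**Figure D4:**
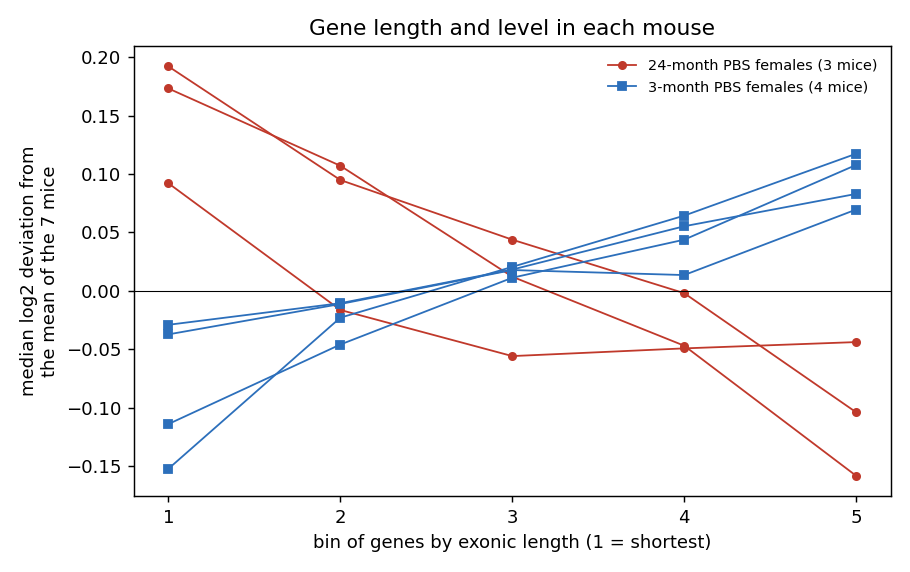
Median log2 deviation of each mouse from the mean of the 7 mice (vertical axis) in 5 bins of the genes by exonic length, 1 being the shortest (horizontal axis). The 3 24-month mice (red) lie above 0 in the shortest bin and below 0 in the longest, and the 4 3-month mice (blue) the other way round.

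Whether the age changes also appeared in other mice was examined in PBS-treated males and in LPS-treated females of 24 and 3 months. These mice took no part in calling the genes, but their values entered the mean level by which genes were kept. Low genes such as Cxcl13, Cxcr6 and Gimap3 were kept through groups where they are higher, and the 24-month males are among these groups. How far this filter set the counts given here was not tested. The 4 against 4 males were in the same batch adjustment, and 113 genes passed between them. The 24-month males overlapped the females in Eif2s3y, so that their sex label is in doubt as well. Of the 88 genes that rose in PBS females, 87 had a positive log2 fold change in males, against 66.2% of all genes, and 39 rose there too, against 1.89% of all genes. In 48 of the 88 every 24-month male stood above every 3-month male, against 6.16% of all genes. The exception in sign was Ephx1, an epoxide hydrolase. Spp1 had 371, 344, 50 and 133 in 24-month males, against 20, 41, 29 and 35 in 3-month males. Of the 30 genes that fell, 19 had a negative log2 fold change in males, against 33.8% of all genes, and none fell there.

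The difference between females and males was past the threshold for 1 gene, Mpo, whose interaction on the log2 scale was -6.79 ± 1.29 SE (females minus males, limma adjusted p = 0.0311). The call was lost at a pseudocount of 5 and with median-ratio scaling, where the smallest adjusted p of any gene was 0.0942 and 0.0558, and without the first or the second 24-month or the first or the third 3-month female (0.0572 to 0.164). Mpo had 4, 57, 17 and 56 in 24-month males, against 1, 11, 2 and 6 in 3-month males. Zfhx3, Marcks and Fcrls had log2 fold changes of -0.34, -0.41 and -0.46 in males, and P2ry12 fell there by 0.98.

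In LPS-treated females, 3 mice of each age, 2 genes passed at 24 against 3 months, the histone genes Hist1h2ao and Hist1h2ap, whose sequences are nearly the same. Of the 88 genes that rose in PBS females, 68 had a positive log2 fold change there (46.5% of all genes), with a median of 0.26 where the PBS females had 1.07, and none passed. Every LPS-treated 24-month mouse stood above every LPS-treated 3-month mouse for 9 of the 88 (5.61% of all genes). Spp1 had 229, 476 and 81 in LPS-treated 24-month mice, against 45, 82 and 104 in LPS-treated 3-month mice. Cxcr6 and Ccl5 had negative log2 fold changes of -1.01 and -0.87. Of the 30 genes that fell, 10 had a negative log2 fold change (53.5% of all genes). No gene passed for the difference between the age change under LPS and under PBS (limma, smallest adjusted p = 0.0504), while 653 genes had an unadjusted p under 0.05, so that the smaller changes under LPS were not shown to differ for any single gene.

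**Figure D5:**
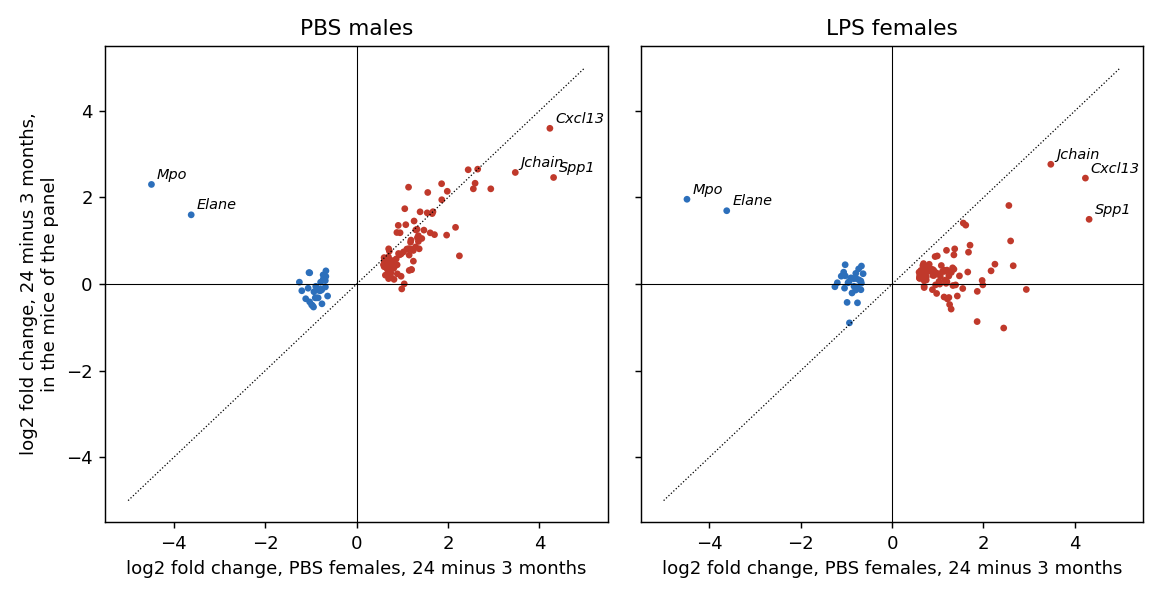
Log2 fold changes at 24 against 3 months of the 118 called genes in PBS females (horizontal axis) and in other mice (vertical axis), PBS males on the left and LPS-treated females on the right, with risen genes in red, fallen genes in blue and equal changes on the dotted line. In males 87 of the 88 red points lie above 0, and in LPS-treated females 68 do.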

How the data were processed

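The authors filtered reads with SOAPnuke, aligned them to mm10 with HISAT2 2.0.4, used Bowtie2 2.2.5 against coding genes and estimated FPKM by RSEM 1.2.12. They adjusted all 64 libraries together with ComBat_seq and left out genes averaging under 10 FPKM, per their methods. The deposited values are treated as scores (adjusted FPKM, whole numbers except for 43 of 39529 values in the 7 mice, all below 1), since they are not counts, and no count model was fitted. Depth is unknown, so that no counting interval was computed.

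Values were taken as log2(value + 1) without further scaling, which makes folds of low genes too small. The 26 PBS-treated females of 7 ages were fitted with limma 3.58.1 in R 4.3.3, with a variance trend, and 24 against 3 months was a contrast. Differences by LPS (6 female groups) and by sex (12 PBS groups of shared ages) were interactions. p-values were adjusted by Benjamini-Hochberg over 5647 genes. Nothing says that the mice of a group were housed or sorted apart, so that p-values measure the spread between these mice. Named genes were the 20 largest rises and 15 largest falls among called genes without overlap, up to 4 called members of each list, 18 reference genes and genes past an interaction. 1 reference gene is not reported here. Cd79b, Eif2s3y, Ephx1, Hist1h2ao, Hist1h2ap and S100a8 were named after their values were seen. The comparison, its members and the gene lists were chosen with earlier results of these data known. The method was tested on simulated data. Alternatives were a filter at a mean of 50, pseudocounts of 0.5 and 5, 2 scalings, other variance settings, other thresholds, the 2 groups alone, a replicate block, and leaving out each mouse.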

Additional observations from a re-analysis of the deposited data

Results flagged for a closer look

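Within the 3-month females, 1 mouse stood far from the other 3 in 9 of 82 values checked, by the gap to its nearest neighbour over the range, a distance that chance gives in about 1 in 20 groups. Mpo was 116 in the third mouse and 23 to 37 in the others, and Ms4a4b was 11 in the first mouse and 4 or 5 in the others. Cxcl13 was 2 in the second mouse and 0 to 0.1 in the others. In Cxcr6 (6 in the third mouse), Ptgds (6 in the first), Wdfy2 (29 in the second), Rad21 (18 in the fourth), Slc39a10 (14 in the fourth) and Zfp65 (18 in the first) the other 3 mice had 1 same whole number, and except in Wdfy2 the gap was 1 unit of the rounded values.

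The age change of Mpo differed between the sexes by -6.79 on the log2 scale (females minus males, limma adjusted p = 0.0311). Its 24-month values were 0, 0 and 5 in females and 4, 57, 17 and 56 in males, and its 3-month values 37, 23, 116 and 25 in females and 1, 11, 2 and 6 in males. The interaction was not past the threshold when the first or the second 24-month female, or the first or the third 3-month female, was left out.

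Hsp90ab1, a cytosolic chaperone, was lower in every 24-month than in every 3-month PBS female and higher in every 24-month than in every 3-month LPS-treated female, where its log2 fold change was 0.25. Its values were 340, 351 and 390 in LPS-treated 24-month mice, against 310, 297 and 302 in LPS-treated 3-month mice. The interaction of this gene was not past the threshold.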

How the results depend on the processing

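The 118 genes at 24 against 3 months became 470 in a fit of the 2 groups alone (304 higher, 166 lower), which shared 117 genes with the 118, 617 at the study's unadjusted p and fold, and 67 after the trend with gene length was removed, a setting added after the data were seen. They were 20 to 106 when 1 mouse was left out. All other alternatives gave 92 to 128. After scaling to equal totals 99 genes passed, of which 61.6% were higher against 74.6% of the 118, and the median of all genes was -0.09. The replicate block gave 92 genes, 88 of them shared. Mice of the same replicate number had deviations correlated at 0.15, 0.02 and -0.07. The first and the second 24-month mouse correlated best with the 3-month mouse of their own number, the third with the second. The numbers were not treated as a pairing in the main fit, and whether they mark a shared batch was not tested. Of the 63 called genes that were named, 49 kept their call with the block, 54 with the same total and 39 without the length trend, and none changed direction in any setting.

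For the difference by LPS, 0 genes became 7 and 14 at pseudocounts of 0.5 and 5, 6 at the same total, 6 with the replicate block and 576 unadjusted, and 0 to 19 without 1 mouse. For the difference by sex, 1 gene became 0 at a pseudocount of 5, 0 with median-ratio scaling, 2 with the replicate block and 398 unadjusted, and 0 to 3 without 1 mouse. The difference of the library totals was 18325 to 39859 without 1 mouse and never past the threshold.

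Only genes near 0 changed direction, none of them called. Ptprc had -0.0395 at the same total and -0.0498 to 0.128 without 1 mouse, C1qa had -0.0808 to 0.125 without 1 mouse, and Aif1 had -0.0511 and Irf8 0.0387 without the length trend. Causes of these shifts were not tested. The fits that left out 1 mouse do not separate the smaller number of mice from the mouse that was left out. Depth is unknown, so that its limits cannot be given. The 3 mice of the 24-month group and values rounded to whole numbers limit low genes most.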

Other observations

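Some genes that rose have no gene name of their own. LOC100044627 had 112, 120 and 116 in 24-month mice, against 38, 49, 48 and 69 in 3-month mice, and LOC100862455 had 110, 117 and 113 in 24-month mice, against 39, 49, 49 and 69 in 3-month mice. The values of the 2 genes are nearly the same in all 7 mice, and reads may have been shared between them, so that they may count as 1 signal. Both were chosen after their values were seen.

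Cd52, a small surface glycoprotein of leukocytes, rose with values of 626, 656 and 490 in 24-month mice, against 230, 197, 280 and 216 in 3-month mice. Tspo, the mitochondrial translocator protein used as a marker of microglial activation in brain imaging, had 242, 174 and 133 in 24-month mice, against 80, 78, 96 and 94 in 3-month mice, a log2 fold change of 1.03 (limma adjusted p = 0.0303). Rbm3, an RNA-binding protein known from the response to cold, had 106, 58 and 60 in 24-month mice, against 29, 30, 26 and 30 in 3-month mice. Nr3c1, the glucocorticoid receptor, fell and had 25, 27 and 38 in 24-month mice, against 44, 55, 46 and 46 in 3-month mice (log2 fold change -0.67, limma adjusted p = 0.0446). None of these 4 genes overlapped between the ages, and they too were chosen after their values were seen.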
